A study of Rattus norvegicus with 9 samples.

Results

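Cdkn2a was the gene with the largest increase over normal tongue in the tongues of rats given the carcinogen 4-nitroquinoline 1-oxide (4NQO), and its level is described here on every array of the series. It is 1 of the 14217 genes that had a probe set with a single gene symbol, and it was read by 1 probe set, 1369194_a_at, of the 31042 analysed. Cdkn2a was chosen by its measured rise in 4NQO over normal tongue on these arrays, so its differences from normal tongue are given as a description with no test. The ending of the probe set's name marks a design that reads alternative transcripts of 1 gene, so the transcripts for the 2 Cdkn2a proteins cannot be told apart in these values. No other probe set named Cdkn2a, alone or with a second gene.

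Tongue tissue of male Sprague Dawley rats was measured on Affymetrix Rat Genome 230 2.0 arrays, 1 array per sample and 3 arrays per group. The IL-1Ra group had received 4NQO in the drinking water and then IL-1 receptor antagonist, which occupies the IL-1 receptor without signalling. The antagonist was injected under the mucosa of the tongue each week, from week 14 to week 22. The 4NQO group had drunk the carcinogen at 0.002%, and the normal group had drunk distilled water. The labels give the carcinogen for 22 weeks, whereas the methods of the antagonist experiment describe 14 weeks of it before the injections, so the length of exposure is not settled. The methods describe saline injections for the untreated arm, and the labels of the 4NQO arrays do not mention them. Neither source gives the lesion stage of an individual tongue or the age of the animals. The study describes the arrays as 9 tongue tissues picked at random, 3 per group, and mentions no pooling of them. The series text speaks of epithelia and fibroblasts, whereas every sample was labelled as tongue tissue.

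Cdkn2a encodes a pair of unrelated tumour suppressors through alternative first exons and a shared exon read in different frames. p16INK4a binds CDK4 and CDK6 and keeps them from phosphorylating the retinoblastoma protein, which holds E2F factors and the entry into S phase in check. p19ARF binds MDM2 in the nucleolus and so spares p53 from degradation. The locus is held low by Polycomb complexes in most young tissues and is expressed in senescent cells, and it is commonly lost in human oral carcinomas. 4NQO is metabolised to a compound that forms bulky adducts on DNA, and given in drinking water it produces dysplasia and squamous carcinoma of the rodent tongue.

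The sequences upstream of Cdkn2a and of its neighbour Cdkn2b, a second inhibitor of CDK4 and CDK6, are shown because the levels of these adjacent genes are compared below. Both are the 250 bases before the RefSeq start site in the rat assembly GRCr8, on the minus strand, at chr5:109107957-109108206 for Cdkn2a and chr5:109134856-109135105 for Cdkn2b. Capitals mark GC boxes (GGGCGG) and E boxes (CANNTG), searched on both strands.
Cdkn2a: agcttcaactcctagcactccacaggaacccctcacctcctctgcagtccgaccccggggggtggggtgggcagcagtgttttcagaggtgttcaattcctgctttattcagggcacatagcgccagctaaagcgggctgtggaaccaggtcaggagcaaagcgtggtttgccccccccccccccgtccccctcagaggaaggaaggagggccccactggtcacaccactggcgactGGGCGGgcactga
Cdkn2b: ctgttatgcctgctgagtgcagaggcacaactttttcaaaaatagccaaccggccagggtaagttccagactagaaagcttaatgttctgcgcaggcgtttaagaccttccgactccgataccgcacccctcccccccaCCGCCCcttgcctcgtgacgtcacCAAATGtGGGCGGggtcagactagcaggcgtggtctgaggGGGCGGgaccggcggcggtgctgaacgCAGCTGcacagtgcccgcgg
The Cdkn2a window held 1 GC box, at base -13 from the start site, and 0 E boxes. The Cdkn2b window held 3 GC boxes and 2 E boxes. Among the 33469 windows of the same length in the RefSeq table, 30.5% held a GC box and 65.5% held an E box. Cdkn2a had 8 CG dinucleotides and 62.8% GC, against 18 CG dinucleotides and 60.8% GC for Cdkn2b and medians of 5 and 51.2% over all windows. Neither window held an AP-1 motif (TGANTCA, in 6.3% of windows) or an E2F motif (TTTGGCGC, in 0.4%, or TTTCGCGC, in 0.2%), and an ETS motif (CGGAAG, in 13.9%) was found 1 time, in the Cdkn2b window. The start site used for Cdkn2a lies 6492 bases inside the gene, counted from its far 5′ end, and a window at that far end was not analysed here.

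Values are log2 of the deposited intensities, and a difference of 1 log2 unit is a doubling. Differences in other genes were tested with limma on all 9 arrays, and a gene was called at an adjusted p under 0.05 after Benjamini-Hochberg adjustment over all probe sets. Correlations between arrays ran from 0.967 to 0.995. By that rule 12.4% of genes were higher and 5.08% lower in 4NQO than in normal tongue (17.4% in all), 1.66% higher and 0.542% lower in IL-1Ra than in normal tongue (2.20% in all), and 1.91% higher and 0.753% lower in IL-1Ra than in 4NQO tongue (2.67% in all). The arrays of 2 groups did not overlap for many genes. In 4NQO against normal tongue 26.5% of genes lay wholly higher and 14.8% wholly lower, in IL-1Ra against normal tongue 25.9% and 14.4%, and in IL-1Ra against 4NQO tongue 9.31% and 13.5%. The share of higher genes among those called moved with the scaling of the arrays, at 70.9% as deposited, 52.7% after quantile normalisation and 46.0% after cyclic loess for 4NQO against normal tongue. For IL-1Ra against normal tongue it was 75.4%, 43.8% and 28.9% under the same 3 scalings.

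Cdkn2a read 7.61, 7.28 and 8.74 log2 units on the IL-1Ra arrays. It read 7.85, 7.07 and 7.78 on the 4NQO arrays. On the normal arrays it read 4.64, 4.32 and 3.98. Every array of a 4NQO-exposed tongue was therefore above every normal array, and the highest and lowest exposed values were IL-1Ra array 3 and 4NQO array 2. On the linear scale the mean intensity was 260 ± 148 in IL-1Ra, 195 ± 52.9 in 4NQO and 20.3 ± 4.56 in normal tongue (SD, n = 3 each).

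**Figure D1:**
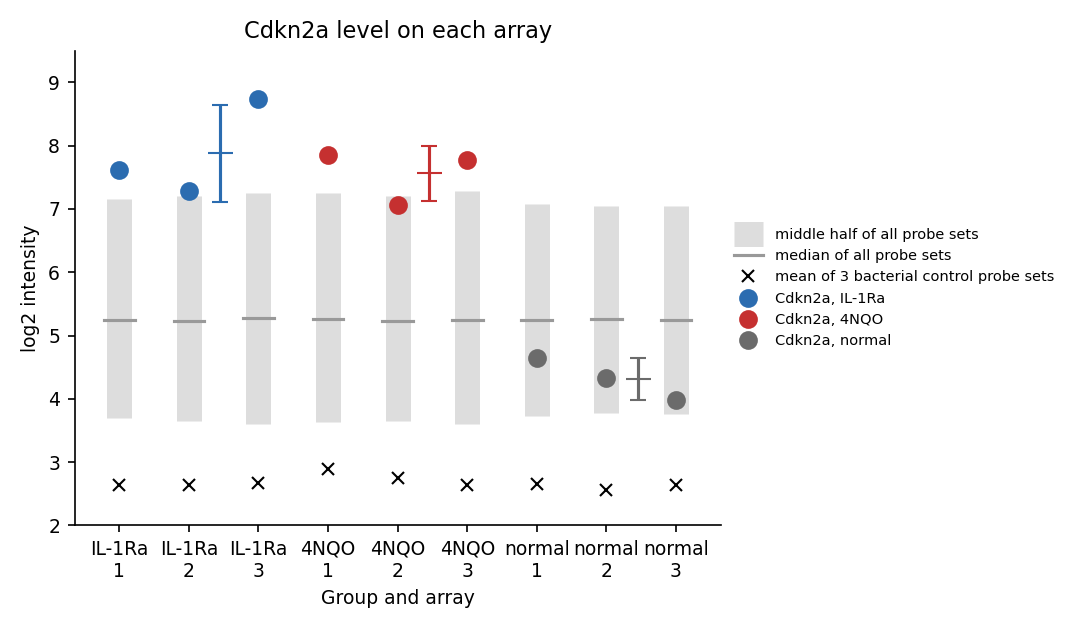
Log2 intensity of Cdkn2a on each of the 9 arrays (points), with the mean ± SD of each group beside its points, the range from the lower to the upper quartile of all probe sets on that array (grey bars), their median (grey lines) and the mean of 3 bacterial control probe sets (crosses). The 3 IL-1Ra and 3 4NQO points lie between 7.07 and 8.74, above the median of their arrays, and the 3 normal points lie between 3.98 and 4.64, below it.

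Within an array, Cdkn2a stood at the 80.6th, 75.9th and 90.1st percentile of all probe sets on the IL-1Ra arrays. On the 4NQO arrays it stood at the 82.2nd, 73.2nd and 81.0th percentile. On the normal arrays it stood at the 40.7th, 35.2nd and 29.4th percentile. The gene thus moved across the array median, lying 1.84 to 3.47 log2 units above it in exposed tongues and 0.61 to 1.26 below it in normal tongues. The signal of normal tongue was dim but above the bacterial tryptophan-operon control probe sets, which read 2.40 to 3.05 over all arrays and at most 2.82 on normal arrays. Unspecific signal compresses folds over dim values on arrays of this kind, and no detection call was used here.

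The mean Cdkn2a level was 7.88 ± 0.77 in IL-1Ra and 4.32 ± 0.33 in normal tongue, a difference of 3.56 log2 units or 11.8-fold. It was 7.56 ± 0.43 in 4NQO tongue, a difference of 3.25 from normal tongue or 9.51-fold. These 2 differences use the same normal arrays. Each was the largest increase among the 14217 genes. In 4NQO tongue the next genes were Serpina3n, a protease inhibitor of the acute phase, at 2.95, and Sult1b1, a sulfotransferase, at 2.62, and their differences in IL-1Ra tongue were 1.07 and 1.60. In IL-1Ra tongue the next was the keratin Krt1 at 2.85, with 1.86 in 4NQO tongue. The distance between the lowest exposed and the highest normal array was also the largest of all genes, at 2.64 for IL-1Ra and 2.43 for 4NQO, where 25.9% and 26.5% of genes had exposed arrays that lay wholly above the normal ones. With a pseudocount of 16 added before the log, which damps dim values, the differences were 2.81 and 2.51.

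IL-1Ra tongue was set against 4NQO tongue to ask whether the antagonist was accompanied by another Cdkn2a level. The 2 groups overlapped, and the difference was 0.31 log2 units or 1.24-fold (SE 0.35, 95% interval -0.47 to 1.10, limma adjusted p = 0.681). The interval runs from 0.720-fold to 2.15-fold, so with 3 arrays a group a doubling could not be told apart from no change. The 4NQO arrays in this test were also used in choosing the gene. IL-1Ra array 3 sets the sign, since the difference was -0.12 without it (adjusted p = 0.847), and it was 0.07 without 4NQO array 2. Cdkn2a spread widely for a probe set, with an SD at the 99.4th percentile of all probe sets in IL-1Ra, the 89.4th in 4NQO and the 95.5th in normal tongue.

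The genes beside Cdkn2a were examined to ask whether they shared its increase. In the RefSeq gene order of GRCr8, 2 of the 10 nearest genes on chromosome 5, 5 on each side, had a probe set here. They were Cdkn2b and Mtap, the methylthioadenosine phosphorylase of methionine salvage. Cdkn2b read 5.42, 5.67 and 5.23 on the IL-1Ra arrays. It read 4.73, 4.57 and 5.08 on the 4NQO arrays and 4.87, 4.76 and 4.73 on the normal arrays. The 4NQO and normal arrays overlapped and the IL-1Ra arrays lay above both. The 4NQO minus normal difference of Cdkn2b was 0.01 (95% interval -0.34 to 0.35, adjusted p = 0.983). The IL-1Ra group differed from normal by 0.65 (adjusted p = 0.0615) and from 4NQO by 0.65 (adjusted p = 0.0649), and neither passed the threshold. Both did pass without 4NQO array 3, with limma adjusted p = 0.027 and 0.0169, and with array weights, with adjusted p = 0.0115 and 0.038. The first also passed without 4NQO array 2 and with only the compared arrays in the fit. Mtap read 6.93, 6.88 and 6.80 on the IL-1Ra arrays, 7.01, 7.07 and 7.56 on the 4NQO arrays and 6.36, 6.04 and 6.29 on the normal arrays. Mtap was higher in 4NQO than in normal tongue by 0.98 (adjusted p = 0.00736), and its IL-1Ra difference of 0.64 did not pass (adjusted p = 0.0639), although it did without 4NQO array 3 (adjusted p = 0.0196). The array held 3 Mtap probe sets. These values are from that with the highest mean, and the others are not reported here.

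The other cyclin-dependent kinase inhibitors of the array did not pass the test in any comparison. All 7 listed were measured. By limma 0 of 7 were called in 4NQO against normal, in IL-1Ra against normal and in IL-1Ra against 4NQO tongue. The shares of all genes called were 17.4%, 2.20% and 2.67% in the same order. At an unadjusted p under 0.05 limma counted 2, 3 and 2 of the 7, beside 36.5%, 25.6% and 21.7% of all genes. The methods' t-test counted 0, 3 and 1, beside 4128, 4154 and 1939 of the 14217 genes. Their median difference was 0.01 in 4NQO against normal tongue, beside 0.08 over all genes, and 0.32 in IL-1Ra against normal tongue, beside 0.04. Cdkn1a, the p53-induced inhibitor p21, read 11.11, 11.03 and 10.91 on the IL-1Ra arrays, 11.12, 10.86 and 10.87 on the 4NQO arrays and 10.88, 10.45 and 10.53 on the normal arrays. The IL-1Ra arrays lay above all normal arrays and the 4NQO arrays overlapped them, with differences from normal of 0.40 (adjusted p = 0.13) and 0.33 (adjusted p = 0.124).

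Cdkn2c, which encodes the CDK4 and CDK6 inhibitor p18, had the lowest 4NQO values relative to normal of the other inhibitors. It read 8.57, 8.95 and 8.67 on the IL-1Ra arrays, 7.84, 6.73 and 8.10 on the 4NQO arrays and 8.68, 7.98 and 8.57 on the normal arrays. The 4NQO values were low, most of all on array 2, with a 4NQO minus normal difference of -0.85 (adjusted p = 0.0974) and an IL-1Ra minus 4NQO difference of 1.17 (adjusted p = 0.0893). Both passed without 4NQO array 3, with adjusted p = 0.0467 and 0.0303. A second Cdkn2c probe set gave -0.06 and -0.06 for the same comparisons. Cdkn1b, which encodes p27, had an IL-1Ra minus normal difference of -0.43 (adjusted p = 0.0747, or 0.0431 with array weights), and Cdkn2d, Cdkn1c and Cdkn3 had 4NQO minus normal differences of 0.18, -0.11 and 0.62, none of which passed. Cdkn3, a phosphatase that acts on CDKs, was spread by 4NQO array 3 at 9.18 and 4NQO array 2 at 7.52, and its 1.01 without array 2 passed (adjusted p = 0.0397).

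**Figure D2:**
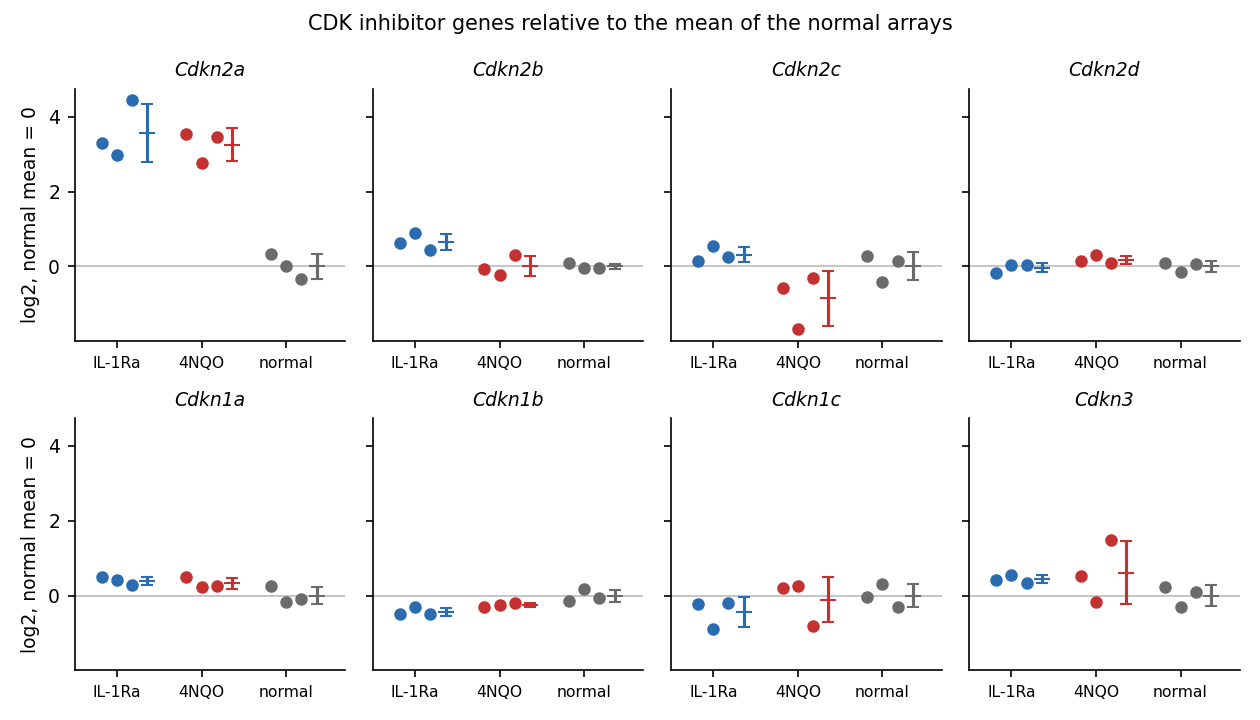
Log2 intensity of Cdkn2a and the 7 other CDK inhibitor genes on each array, relative to the mean of the normal arrays of the same gene (0 on a shared vertical axis), with the mean ± SD of each group of 3. The Cdkn2a points of IL-1Ra and 4NQO tongue stand apart from the normal ones, with mean differences of 3.56 and 3.25, whereas the means of the other 7 genes lie between -0.85 and 0.65.

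Of the cyclin D, CDK4/6 and RB genes on which p16INK4a acts, 18 of 19 were measured. In 4NQO against normal tongue 2 rose and 0 fell, 11.1% of them beside 17.4% of all genes. In IL-1Ra against normal tongue 1 rose, 5.56% beside 1.66% of all genes. In IL-1Ra against 4NQO tongue 0 passed by limma, beside 2.67% of all genes. At an unadjusted p under 0.05 limma counted 2 there, 11.1% beside 21.7% of all genes. The methods' t-test counted 0, beside 1939 of 14217 genes. Ccnd1, the cyclin D1 that activates CDK4 and CDK6, read 9.48, 9.51 and 9.77 on the IL-1Ra arrays, 9.64, 9.60 and 10.44 on the 4NQO arrays and 8.67, 8.41 and 8.62 on the normal arrays. The exposed arrays lay above all normal ones. The differences from normal were 1.02 in IL-1Ra (adjusted p = 0.0466) and 1.33 in 4NQO (adjusted p = 0.00736), and 2 further Ccnd1 probe sets gave 1.23 and 1.40 for 4NQO.

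E2f2, a transcription factor that RB restrains, was the other gene that rose in 4NQO tongue, by 0.91 (adjusted p = 0.0346), and this call was lost without normal array 2 or 3, IL-1Ra array 1 or 4NQO array 1 or 2. Cdk4 had differences from normal of 0.38 in IL-1Ra (adjusted p = 0.198) and 0.39 in 4NQO (adjusted p = 0.126). Rb1, the retinoblastoma gene, had 0.06 (adjusted p = 0.848) and 0.38 (adjusted p = 0.12), and its 4NQO difference passed without 4NQO array 3, at 0.53 (adjusted p = 0.0423). Cdk6 was dim on every array, at 2.92 to 3.55. Ccnd2, a cyclin D of the same function, had a 4NQO minus normal difference of 1.19 (adjusted p = 0.0913) with values from 8.27 to 10.73. The remaining 12 members were Ccnd3, Cdc37, the RB relatives Rbl1 and Rbl2, E2f1, the E2f4 to E2f8 genes, Tfdp1 and Tfdp2. They did not pass in any comparison of the reported fit. Under some other settings Cdc37, Rbl2, E2f1, E2f6 and E2f8 did pass. E2f6, for example, rose by 0.65 in 4NQO against normal tongue without 4NQO array 3 (limma adjusted p = 0.0112). The 4NQO minus normal differences of all 18 ran from -0.18 to 1.33.

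The genes around p19ARF formed the ARF, MDM2 and p53 list, of which 11 of 15 were measured, and 7 rose and 0 fell in 4NQO against normal tongue, 63.6% beside 12.4% of all genes that rose. Their median difference was 0.59. In IL-1Ra against normal tongue 2 of 11 rose, Ubtf and Bop1, 18.2% beside 1.66% of all genes. In IL-1Ra against 4NQO tongue 0 were called by limma, beside 2.67% of all genes. At an unadjusted p under 0.05 limma counted 3 there, 27.3% beside 21.7% of all genes. The methods' t-test counted 1, beside 1939 of 14217 genes.

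Mdm2, the ubiquitin ligase that p19ARF binds, read 8.63, 8.74 and 8.82 on the IL-1Ra arrays, 9.17, 8.89 and 8.92 on the 4NQO arrays and 8.35, 8.41 and 8.45 on the normal arrays. The 3 groups did not overlap, with IL-1Ra between the others. Mdm2 rose by 0.59 in 4NQO (adjusted p = 0.0114), and its IL-1Ra minus normal difference was 0.33 (adjusted p = 0.121). A second Mdm2 probe set gave 0.63 in IL-1Ra (adjusted p = 0.0344) and 0.58 in 4NQO tongue (adjusted p = 0.00835), and a dimmer one gave 0.28 and 0.02 without passing. Ubtf, the RNA polymerase I factor that p19ARF is known to act on, read 7.18, 7.30 and 7.23 on the IL-1Ra arrays, 7.55, 7.53 and 7.64 on the 4NQO arrays and 6.82, 6.79 and 6.68 on the normal arrays. The groups were again ordered 4NQO, IL-1Ra, normal without overlap. Ubtf rose by 0.47 in IL-1Ra (adjusted p = 0.0462) and by 0.81 in 4NQO tongue (adjusted p = 0.00384), and its 3 other probe sets ranged from 0.13 to 0.74 in the 4NQO comparison. In IL-1Ra against normal tongue those 3 gave 0.23, 0.44 and 0.29 without passing.

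Bop1, a factor of ribosomal RNA processing, rose by 0.82 in IL-1Ra (adjusted p = 0.0362) and by 0.71 in 4NQO (adjusted p = 0.0114). Tp63, the p53 relative that marks basal keratinocytes, rose by 1.40 in 4NQO tongue (adjusted p = 0.0226), with the highest value, 10.24, on 4NQO array 3. Nfkbia, the inhibitor of NF-kB, rose by 0.88 (adjusted p = 0.014). Ncl, the nucleolar protein nucleolin, rose by 0.64 (adjusted p = 0.0235). Trip12, a ubiquitin ligase that degrades ARF, rose by 0.42 (adjusted p = 0.0294), whereas its second probe set gave 0.18 (adjusted p = 0.288). The members that moved thus include general ribosome biogenesis and keratinocyte genes. Huwe1 and Usp7, a ligase and a deubiquitinase of the p53 pathway, had 0.01 and 0.36 in 4NQO tongue and did not pass, although 2 further Usp7 probe sets did, at 0.59 (adjusted p = 0.0103) and 0.52 (adjusted p = 0.0253). Mdm4 and Ttf1 had 0.25 and 0.33. Mdm2, Bop1, Ncl, Trip12 and Tp63 lost their 4NQO calls under cyclic loess.

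Of 43 genes known to regulate the Cdkn2a locus, 39 were measured, and 8 rose and 1 fell in 4NQO against normal tongue, 20.5% and 2.56% of them beside 12.4% and 5.08% of all genes. Their median difference was 0.10, near the 0.08 of all genes. Kdm6b and Mapk14 were the 2 that rose in IL-1Ra against normal tongue, 5.13% beside 1.66%. Kdm6b, the demethylase that removes the Polycomb mark H3K27me3, read 6.92, 6.84 and 6.57 on the IL-1Ra arrays, 7.45, 7.21 and 7.37 on the 4NQO arrays and 6.19, 5.95 and 5.78 on the normal arrays. The groups did not overlap and 4NQO was highest. Kdm6b rose by 0.80 in IL-1Ra (adjusted p = 0.0396) and by 1.37 in 4NQO tongue (adjusted p = 0.00323), and its IL-1Ra minus 4NQO difference was -0.57 (adjusted p = 0.0688).

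Polycomb subunits did not move together. Phc1 rose by 0.74 (adjusted p = 0.00774) and Eed by 0.43 (adjusted p = 0.0208) in 4NQO tongue. The 2 H3K27 methyltransferase genes Ezh2 and Ezh1 had 0.54 (adjusted p = 0.14) and 0.22 (adjusted p = 0.214), and Suz12, a subunit of the same complex, had -0.56 (adjusted p = 0.055). Suz12 passed after quantile normalisation at -0.74 (adjusted p = 0.0332), under cyclic loess at -0.78 (adjusted p = 0.0305) and without 4NQO array 3 at -0.67 (adjusted p = 0.0428), as well as with array weights and without the dimmest probe sets. Rnf2, the ubiquitin ligase subunit RING1B, read 6.66, 6.67 and 6.55 on the IL-1Ra arrays, 7.13, 7.22 and 7.19 on the 4NQO arrays and 6.98, 7.13 and 6.99 on the normal arrays. The IL-1Ra arrays lay below all others. Rnf2 was the only regulator called in IL-1Ra against 4NQO tongue, 2.56% of the list beside 2.67% of all genes. There Rnf2 fell by 0.55 (adjusted p = 0.0221), and its second probe set gave -0.19 (adjusted p = 0.361).

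Among activators of the locus, Ets1 rose by 0.41 (adjusted p = 0.0355) and Ets2 by 0.60 (adjusted p = 0.022) in 4NQO tongue. Mapk14, the kinase p38 alpha, rose by 0.59 in IL-1Ra (adjusted p = 0.0442) and by 0.48 in 4NQO tongue (adjusted p = 0.026). Myc, an oncogene that induces ARF in mouse cells, rose by 1.04 in 4NQO tongue (adjusted p = 0.0107), with an IL-1Ra minus normal difference of 0.78 (adjusted p = 0.0637) that passed without 4NQO array 3 (adjusted p = 0.0215). Smarca4, the ATPase BRG1 that opposes Polycomb at the locus in human tumour cells, rose by 0.67 in 4NQO (adjusted p = 0.0112), and 2 further probe sets gave 1.12 and 0.95. Its IL-1Ra minus normal difference of 0.56 did not pass (adjusted p = 0.0548). The 2 further probe sets did pass there, at 0.80 and 0.66 (limma adjusted p = 0.044 for each). Twist1, a repressor of the senescence response, fell by 0.62 in 4NQO (adjusted p = 0.0311), with the lowest value of 5.76 on 4NQO array 2, and its second probe set gave -0.29 (adjusted p = 0.142). Its IL-1Ra minus normal difference was near 0 (adjusted p = 0.994). The repressors Id1 to Id4, Tbx2 and Tbx3 were not called in any comparison. Over all genes 17.4% were called in 4NQO against normal, 2.20% in IL-1Ra against normal and 2.67% in IL-1Ra against 4NQO tongue. So few genes without a call do not show that these repressors were unchanged. Tbx3 had a 4NQO minus normal difference of 0.85 (limma adjusted p = 0.0908), and its other probe sets gave 0.03, 0.26 and 0.21. Id1, Id2, Id3, Id4 and Tbx2 had 0.42, 0.06, -0.07, 0.10 and -0.21 there. The Ets1, Ets2, Eed and Mapk14 calls in 4NQO tongue were lost after quantile normalisation and under cyclic loess.

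**Figure D3:**
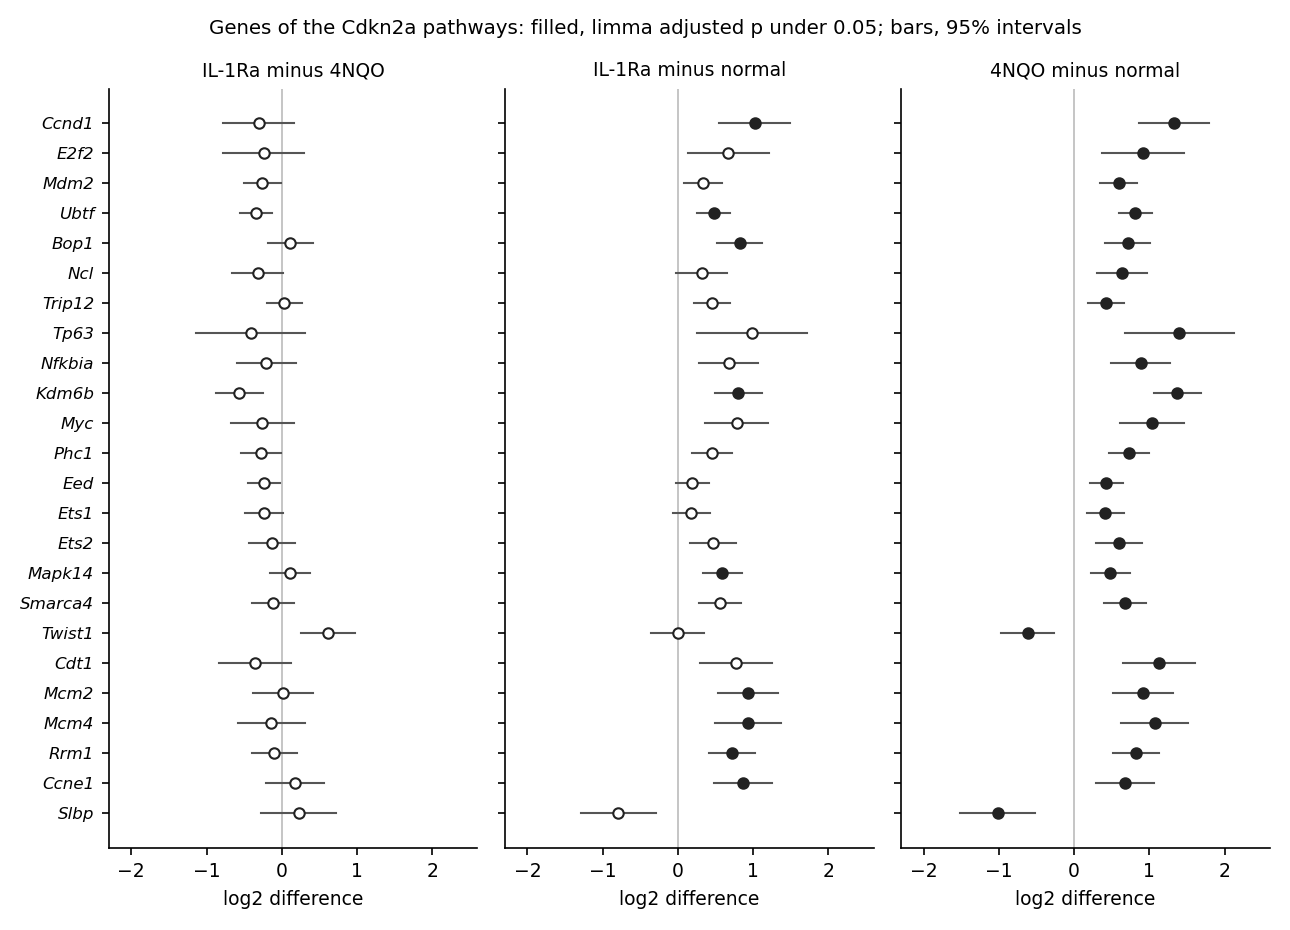
Log2 differences of genes of the Cdkn2a pathways with their 95% intervals, for IL-1Ra minus 4NQO, IL-1Ra minus normal and 4NQO minus normal. Filled points passed a limma adjusted p under 0.05, and the genes plotted were picked among those that passed in 4NQO against normal tongue. In that comparison Twist1 and Slbp lie left of 0 and the others right of it, with Tp63 at 1.40, Kdm6b at 1.37 and Ccnd1 at 1.33 farthest out.

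Targets of the pathways were described through E2F and p53. Of 36 E2F target genes of S phase 31 were measured. In 4NQO against normal tongue 9 rose and 1 fell, 29.0% rising beside 12.4% of all genes, and in IL-1Ra against normal tongue 6 rose, 19.4% beside 1.66%. The risers were mostly genes of replication licensing and DNA synthesis. Mcm4, a helicase subunit, read 7.28, 7.72 and 7.71 on the IL-1Ra arrays, 7.45, 7.57 and 8.09 on the 4NQO arrays and 6.86, 6.37 and 6.67 on the normal arrays, without overlap of exposed and normal tongues. It rose by 0.93 in IL-1Ra (adjusted p = 0.0498) and by 1.07 in 4NQO (adjusted p = 0.0112). Rrm1, a ribonucleotide reductase subunit, rose by 0.72 (adjusted p = 0.044) and 0.82 (adjusted p = 0.00835) in the same groups. Cdt1, which loads the helicase, rose by 1.13 in 4NQO (adjusted p = 0.0116), and Ccne1, cyclin E1, rose by 0.86 in IL-1Ra (adjusted p = 0.0449) and 0.68 in 4NQO (adjusted p = 0.03). Slbp, the histone mRNA binding protein, fell by 1.02 in 4NQO (adjusted p = 0.0188), and its 2 dimmer probe sets gave 0.12 and -0.24 without passing.

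Genes of mitosis on the same list did not pass in the reported fit. Of all genes, 17.4% passed in 4NQO and 2.20% in IL-1Ra against normal tongue. The cyclin B1 gene Ccnb1 had a 4NQO minus normal difference of 0.40 (limma adjusted p = 0.32). It passed without 4NQO array 2, at 0.72 (limma adjusted p = 0.0405). Mki67, a proliferation marker, read 7.34, 7.92 and 7.30 on the IL-1Ra arrays, 7.33, 6.78 and 8.21 on the 4NQO arrays and 7.25, 6.64 and 7.37 on the normal arrays. Exposed and normal arrays overlapped, with differences from normal of 0.43 (adjusted p = 0.471) and 0.35 (adjusted p = 0.492). Top2a, a topoisomerase of mitosis, had 0.39 (adjusted p = 0.529) and 0.24 (adjusted p = 0.658). The interval of the 4NQO difference of Mki67 reached from -0.39 to 1.10, so a doubling could not be told apart from no change.

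Of 32 p53 target genes 25 were measured, and 7 rose and 1 fell in 4NQO against normal tongue, 28% rising beside 12.4% of all genes. In IL-1Ra against normal tongue Aen and Ei24 rose and Phlda3 fell, 12% of the 25 beside 2.20% of all genes. Cdkn1a, described above, is among the targets that were not called, as are the proapoptotic Bbc3 at -0.03 in 4NQO tongue (adjusted p = 0.834) and the damage sensor Ddb2 at -0.01 (adjusted p = 0.959). Xpc, which recognises bulky DNA adducts in nucleotide excision repair, read 6.51, 6.69 and 6.51 on the IL-1Ra arrays, 6.97, 7.13 and 7.16 on the 4NQO arrays and 6.60, 6.40 and 6.62 on the normal arrays. The 4NQO arrays lay above both other groups. Xpc rose by 0.55 in 4NQO against normal tongue (adjusted p = 0.0151) and fell by 0.52 in IL-1Ra against 4NQO tongue (adjusted p = 0.0455). Ddit4, a stress-induced inhibitor of mTORC1, rose by 1.27 in 4NQO (adjusted p = 0.0159), and Gadd45a, a growth arrest gene of the damage response, by 0.83 (adjusted p = 0.0433). Plk3, a stress kinase, fell by 0.78 (adjusted p = 0.0158). Aen, a nuclease of apoptosis, rose by 0.61 in IL-1Ra (adjusted p = 0.0454) and 0.64 in 4NQO (adjusted p = 0.0128), although its second, dimmer probe set gave 0.40 and -0.37 without passing.

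Genes of senescence and its secretory products were listed because Cdkn2a is widely used as a marker of senescent cells. Of 33 such genes 32 were measured, and 2 rose and 2 fell in 4NQO against normal tongue, 6.25% rising beside 12.4% of all genes. By limma 0 of the 32 passed in IL-1Ra against normal tongue, beside 2.20% of all genes. At an unadjusted p under 0.05 limma counted 3 there, 9.4% beside 25.6% of all genes. The methods' t-test counted 6, beside 4154 of 14217 genes. In IL-1Ra against 4NQO tongue 2 rose, 6.25% beside 1.91% of all genes. Hmgb1, a chromatin protein that senescent cells release, rose by 0.72 in 4NQO (adjusted p = 0.00754), and Plaur, the urokinase receptor, by 0.55 (adjusted p = 0.0199). Fgf2, a growth factor, fell by 0.60 (adjusted p = 0.0199), and Ctsd, the lysosomal protease cathepsin D, fell by 0.47 (adjusted p = 0.0286). Ctsd was higher in IL-1Ra than in 4NQO tongue by 0.59 (adjusted p = 0.0347), as was the protease inhibitor Timp2 by 1.23 (adjusted p = 0.0386). Second, dimmer probe sets of Hmgb1, Plaur and Timp2 gave 0.43 (adjusted p = 0.0746), -0.04 (adjusted p = 0.893) and 0.34 (adjusted p = 0.283) for these comparisons.

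Lmnb1, the lamin B1 gene that falls in senescent cells, read 8.21, 8.58 and 8.35 on the IL-1Ra arrays, 8.33, 8.10 and 8.84 on the 4NQO arrays and 8.32, 7.80 and 8.09 on the normal arrays. The 3 groups overlapped, and the 4NQO minus normal difference was 0.35 (adjusted p = 0.251). Il6, a cytokine of the senescent secretome, was dim in all groups and reached 3.89 on 4NQO array 1 alone. The chemokine Cxcl1 and the growth factor Areg were high on the same array, at 6.63 and 6.98, and on 4NQO array 3 at 5.24 and 5.59, whereas 4NQO array 2 read 3.86 and 3.16. Normal arrays read 3.98 to 4.22 for Cxcl1 and 3.50 to 3.74 for Areg. These split 4NQO values gave differences of 1.11 (adjusted p = 0.175) and 1.63 (adjusted p = 0.143), and in IL-1Ra tongue the differences from normal were -0.06 and 0.59. Without 4NQO array 2 the 4NQO differences were 1.80 (adjusted p = 0.0179) and 2.67 (adjusted p = 0.00515), and both genes were also called with array weights. Without that array the IL-1Ra minus 4NQO differences of -1.86 (adjusted p = 0.044) and -2.09 (adjusted p = 0.0196) passed as well. 4NQO array 2 was also the lowest 4NQO array for Cdkn2a, but its Cdkn2a level was still 2.43 log2 units above the highest normal array.

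The 7 lists held 160 measured genes in all, of which 34 rose and 5 fell in 4NQO against normal tongue, 24.4% of them beside 17.4% of all genes. In IL-1Ra against normal tongue 13 rose and 1 fell, 8.75% beside 2.20%, and in IL-1Ra against 4NQO tongue 2 rose and 2 fell, 2.5% of them beside 2.67% of all genes. The 39 calls in 4NQO tongue came to 21, 14 of them higher, under cyclic loess and to 22, 16 and 13 without normal array 1, 2 and 3. The 14 calls in IL-1Ra against normal tongue came to 1 after quantile normalisation and to 0 when any 1 of the IL-1Ra or normal arrays was left out, where the count over all genes was 0 to 6, and to 6 and 35 without 4NQO array 1 and 3. The 4 calls in IL-1Ra against 4NQO tongue came to 0 without any 1 of the IL-1Ra arrays and to 12 without 4NQO array 3. The calls over all genes moved as well. In 4NQO against normal tongue they went from 2479 to 1024, 840 and 455 without normal array 1, 2 and 3. Without 4NQO array 3 they went from 313 to 1223 in IL-1Ra against normal tongue. In IL-1Ra against 4NQO tongue they went from 379 to 1328 without that array.

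The genes whose profile was nearest to that of Cdkn2a were found by the root mean square difference between mean-centred log2 values over the 9 arrays, 1 probe set per gene. They were Ccl20 at 0.92, Asns at 0.95, Sele and Akr1b8 at 1.04, Slc2a1 and Tbc1d10c at 1.05, Nr4a3 at 1.06, Bhlhe40 at 1.08, Mgst2 at 1.09 and Ripk4 at 1.11. The median distance over all genes was 1.66, and 0 genes came within 0.5, so no profile was close to that of Cdkn2a. The measure counts size as well as shape, and these 10 genes were nearest in part because their own differences were large.

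Ccl20, a chemokine of keratinocytes, read 5.70 to 6.99 on the IL-1Ra arrays, 4.85 to 6.42 on the 4NQO arrays and 4.09 to 4.85 on the normal arrays. Like Cdkn2a it was highest on IL-1Ra array 3 and had its lowest exposed value on 4NQO array 2, a likeness favoured by its choice as the nearest profile. Asns, the asparagine synthetase, read 6.90, 6.64 and 6.84 on the IL-1Ra arrays, 6.85, 6.43 and 7.33 on the 4NQO arrays and at most 5.71 on the normal arrays. Slc2a1, the glucose transporter GLUT1, read 9.02, 8.83 and 8.81 on the IL-1Ra arrays, 9.28, 8.71 and 9.83 on the 4NQO arrays and 7.73, 7.18 and 7.76 on the normal arrays. Neither of these was highest on IL-1Ra array 3. Sele, the endothelial E-selectin, averaged 4.27 ± 0.39 in IL-1Ra, 5.30 ± 0.56 in 4NQO and 3.16 ± 0.04 in normal tongue (SD, n = 3 each), with every 4NQO array at or above the highest IL-1Ra array.

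The genes nearest to the mirror image of Cdkn2a were Angptl4 at 0.81, Acyp2 at 0.81, Aqp7 at 0.91, Atp1b4 at 0.99 and Myl2 at 1.04. Angptl4, an inhibitor of lipoprotein lipase, read 8.42, 7.01 and 6.45 on the IL-1Ra arrays, 7.31, 8.68 and 6.97 on the 4NQO arrays and 9.41, 9.73 and 9.48 on the normal arrays. All its exposed values lay below the normal ones, the lowest on IL-1Ra array 3. Myl2, the slow-fibre myosin light chain, read 4.45 on that array, against 6.66 and 7.05 on the other IL-1Ra arrays, a mean of 8.03 ± 1.07 on the 4NQO arrays and 9.64 ± 0.70 on the normal arrays (SD, n = 3 each). Angptl4 and Myl2 were picked for their likeness to the mirror image of Cdkn2a on these arrays. That choice favours low values on IL-1Ra array 3, where Cdkn2a was highest.

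**Figure D4:**
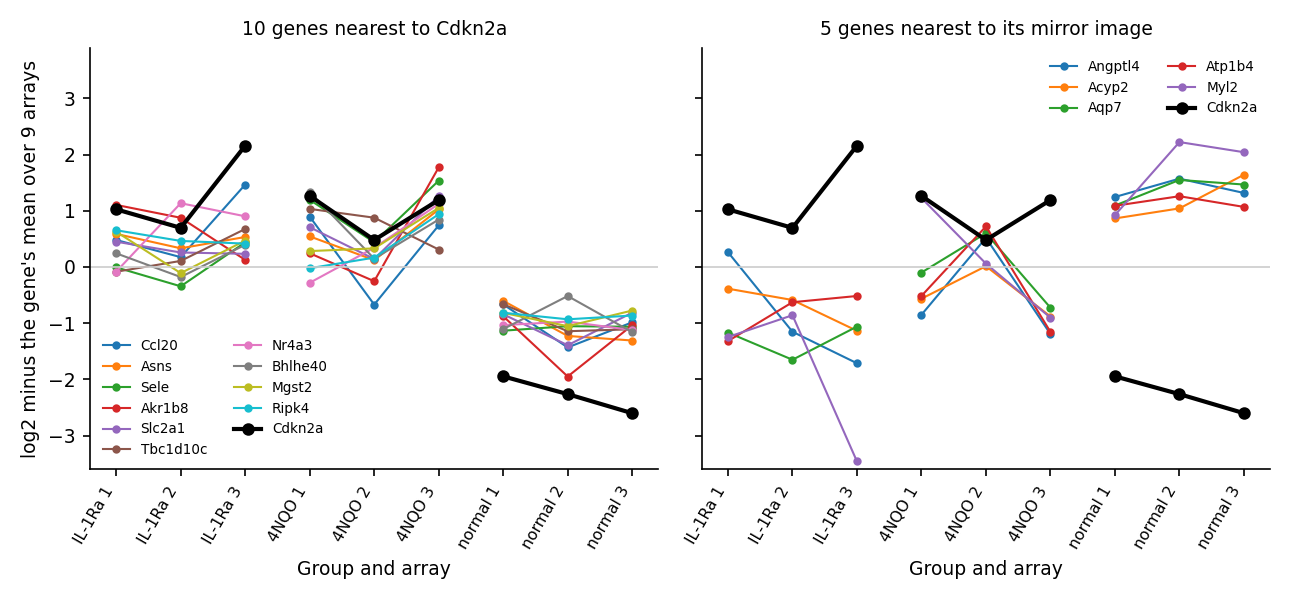
Log2 values on the 9 arrays minus each gene's own mean, for the 10 genes nearest to Cdkn2a (left) and the 5 nearest to its mirror image (right), with Cdkn2a in black. Lines join the arrays of a group only to guide the eye, since arrays have no order. On each normal array Cdkn2a lies farther below 0 than any of the 10 nearest genes, and the 5 mirror genes lie above 0 there.

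The tissue was mixed, and in whole tongue more cells with Cdkn2a RNA and more RNA per cell cannot be told apart. Skeletal muscle markers summed to intensities of 57725 to 62960 in IL-1Ra, 59695 to 73854 in 4NQO and 64137 to 69481 in normal tongue. In 4NQO against normal tongue limma called 0 of 8, beside 17.4% of all genes. At an unadjusted p under 0.05 it counted 1, beside 36.5% of all genes. Basal keratinocyte markers summed to 16498 to 20721 in IL-1Ra, 15853 to 28606 in 4NQO and 8875 to 14614 in normal tongue. In 4NQO against normal tongue 4 of 8 rose, beside 12.4% of all genes. In IL-1Ra against normal tongue 0 of 8 were called by limma, beside 2.20% of all genes. At an unadjusted p under 0.05 limma counted 4 there, beside 25.6% of all genes. The methods' t-test also counted 4, beside 4154 of 14217 genes. Both exposed groups lay above the normal range for this sum. Suprabasal keratinocyte markers summed to 44091 to 46032 in IL-1Ra, 18326 to 36785 in 4NQO and 36643 to 39849 in normal tongue. In 4NQO against normal tongue 2 of 8 fell, beside 5.08% of all genes.

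Fibroblast and matrix markers summed to 12687 to 16244 in IL-1Ra, 4587 to 13533 in 4NQO and 18741 to 21585 in normal tongue. Both exposed groups lay below the normal range, and 5 of 8 fell in 4NQO against normal tongue, beside 5.08% of all genes. The lowest of these sums was on 4NQO array 2. Proliferating cell markers summed to 1027 to 1340 in IL-1Ra, 701 to 1725 in 4NQO and 694 to 1046 in normal tongue. By limma 0 of 8 were called in any comparison, and 0 had an unadjusted p under 0.05. The shares of all genes called were 17.4% in 4NQO against normal, 2.20% in IL-1Ra against normal and 2.67% in IL-1Ra against 4NQO tongue. At that unadjusted p the shares were 36.5%, 25.6% and 21.7%. Endothelial markers rose in 4NQO against normal tongue for 4 of 7, beside 12.4% of all genes. Macrophage sums overlapped between all groups, at 2720 to 4041 in IL-1Ra, 1030 to 2954 in 4NQO and 2015 to 3435 in normal tongue. T and NK cell markers summed to 258 to 319 in IL-1Ra, 182 to 262 in 4NQO and 223 to 229 in normal tongue. Of these 8, 1, Cd4, fell in 4NQO against normal tongue, beside 5.08% of all genes. The median difference of the list there was 0.002. Cd3e, Cd3g, Cd2 and Lck had positive differences and Cd3d, Cd8a and Nkg7 negative ones, without passing. B and plasma cell markers summed to 61.3 to 81.9 in IL-1Ra, 59.7 to 63.5 in 4NQO and 84.1 to 103 in normal tongue. Of these, 3 of 4 fell in 4NQO against normal tongue, beside 5.08% of all genes. Neutrophil markers summed to 168 to 310 in IL-1Ra, 178 to 719 in 4NQO and 157 to 172 in normal tongue, with the highest sum on 4NQO array 1. Of the 5 measured, 1, Cxcr2, was called higher in IL-1Ra than in 4NQO tongue, by 1.39 (adjusted p = 0.0351), beside 1.91% of all genes. The others did not pass there and most went the other way. S100a9, S100a8 and Csf3r had -1.10, -0.26 and -0.13, and Fcgr3a had 0.28.

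The 3′ minus 5′ log2 signal of the beta-actin control, which grows as RNA is degraded or copied incompletely, was 0.98 to 1.27 in IL-1Ra, 1.07 to 1.29 in 4NQO and 0.74 to 0.86 in normal tongue. The same quantity for GAPDH was 0.26 to 0.28 in IL-1Ra, 0.31 to 0.43 in 4NQO and 0.23 to 0.30 in normal tongue. For hexokinase it was 1.80 to 2.20 in IL-1Ra, 1.29 to 1.78 in 4NQO and 1.47 to 1.53 in normal tongue, so that here the IL-1Ra arrays lay above all others and the 4NQO arrays overlapped the normal ones. The part of cell composition and of RNA quality in the Cdkn2a level and in the pathway genes was not tested.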

How the data were processed

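Total RNA of rat tongue, 3 samples a group, was labelled with biotin and hybridised to 1-colour arrays. The intensity values the authors deposited, on a linear scale, came per the submitters' processing notes from Affymetrix Expression Console with RMA, which corrects background, aligns array distributions and summarises probes. No source used here gives their versions. RMA can hide a shift common to most genes. The value table held 31099 rows, of which 57 control probe sets were left out. Of the 31042 others, 20826 had a single symbol in the platform annotation, 436 had several and 9780 had none, and only the first kind was named.

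Log2 values were fitted in R 4.3.3 with limma 3.58.1 as 3 group means with eBayes. Tests were two-sided, adjusted by Benjamini-Hochberg over 31042 probe sets, with 95% intervals and no filter. The gene value was that of its probe set with the highest mean. The script was tested on simulated data. The study speaks of 9 tongue tissues, and the labels tie no array to an animal, so p-values measure the spread between these samples, which may be technical, and the number of arrays limits the precision.

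The gene, the pathway lists (182 genes) and the marker lists were chosen with earlier results of these data known. Named were all measured CDK inhibitors and cyclin D, RB and ARF pathway genes, up to 8 called genes of each other list with the lowest adjusted p in a comparison, the neighbours on the chromosome, and the nearest profiles. Regulators, targets and senescence genes named beyond these, such as Mki67, Top2a, Ezh2, Ezh1, Suz12, Bbc3, Ddb2, Lmnb1, Il6, Cxcl1 and Areg, were chosen after their values were seen. Alternatives were other scalings, a pseudocount of 16, other variance models, array weights, a filter, the compared arrays alone, any probe set of a gene, the methods' t-test and each array left out. Sequences and gene order came from RefSeq tables of GRCr8.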

Additional observations from a re-analysis of the deposited data

How the results depend on the processing

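The Cdkn2a difference from normal was 2.81 in IL-1Ra and 2.51 in 4NQO tongue with a pseudocount of 16, stayed within 3.07 to 3.60 under 3 other scalings, and ran from 3.13 to 3.86 in IL-1Ra and 3.08 to 3.50 in 4NQO when 1 array was left out. The IL-1Ra minus 4NQO difference of Cdkn2a missed the threshold under every setting run. It ran from 0.08 with array weights (adjusted p = 0.932) to 0.38 with cyclic loess (adjusted p = 0.616), and from -0.12 to 0.61 with 1 array left out. Of the pathway genes, 39 were called in 4NQO against normal tongue, with 21 under cyclic loess, 0 by the methods' t-test after Benjamini-Hochberg adjustment, 8 by it unadjusted at a fold of 2, 29 to 44 under the others and 13 to 40 with 1 array left out. In IL-1Ra against normal tongue the 14 calls became 1 after quantile normalisation, 1 under cyclic loess, 42 with array weights, 42 in a fit of the compared arrays alone, 0 by the adjusted t-test, 29 and 4 by the unadjusted t-test at folds of 1.5 and 2, and 0 to 35 with 1 array left out, the most without 4NQO array 3. In IL-1Ra against 4NQO tongue the 4 calls became 0 in a fit of the compared arrays alone, 0 by the adjusted t-test, 1 by the unadjusted t-test at a fold of 2, and 0 to 12 with 1 array left out. The calls over all 14217 genes moved as well. In IL-1Ra against normal tongue they went from 313 to 1951 with array weights and to 1567 with the compared arrays alone. They came to 89 after quantile normalisation, 45 under cyclic loess and 1223 without 4NQO array 3. In IL-1Ra against 4NQO tongue they went from 379 to 112 with the compared arrays alone and to 1328 without 4NQO array 3. The cause of these changes was not tested. No result changed sign while called. An alternative Cdkn2a probe set could not be tried, since there was 1. No paired analysis was possible because the labels give the groups no shared replicate numbers. Dim signal in normal tongue and 3 arrays a group limit the precision.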
